A study of Homo sapiens with 6 samples.

Results

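The EMP and PMP22 genes form a small family of membrane proteins, and all 4 (EMP1, EMP2, EMP3 and PMP22) were found by name among the 14959 genes of a table of mRNA levels in UM-SCC1 cells. UM-SCC1 is an established human line of head and neck squamous cell carcinoma. Its cells received either miR-204-5p mimics, synthetic RNA that acts as the mature miRNA (3 libraries), or control mimics (3 libraries), by transient transfection, and gene expression was measured after 48 h in independent experiments, so that p-values measure the spread between these. All 6 libraries came from this 1 line, and untransfected cells and the level of miR-204-5p itself were not analysed here. EMP1 was chosen by its measured values in this comparison, namely its higher FPKM with miR-204-5p mimics and its uneven control values, so its numbers are given as a description without a test. EMP2, EMP3 and PMP22 were taken because they belong to the same family, and their differences were tested.

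The members of this family cross the membrane 4 times, with both ends in the cytoplasm, and are distant relatives of the claudins of tight junctions. PMP22 is best known as a protein of compact myelin in Schwann cells, where changes in its gene dosage cause inherited neuropathies, but it is also made in epithelia, where it localises to cell junctions. EMP1 is made by many epithelia, EMP2 controls the surface display of integrins, and EMP3 has been studied in glioma and in blood cells. In the complete coding sequences of GENCODE 29, EMP1 has 157 codons, EMP2 has 167, EMP3 has 163 and PMP22 has 160. After translation, EMP1 and EMP2 were the closest pair, with 47.4% identical residues over 152 aligned positions, and EMP1 and EMP3 were the most distant, with 35.9% over 153.

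The family differs in its matches to the seed of the transfected miRNA, and the mature sequence and each match of at least 7 bases are shown for that reason. The seed, bases 2 to 8, is in capitals in the mature sequence of miR-204-5p (RefSeq, GRCh38.p14), and the motif found is in capitals in the sites, which are written along the transcript. In the 8mer and the 7mer-A1 the last capital, an A, lies opposite base 1 of the miRNA, outside the seed.
miR-204-5p: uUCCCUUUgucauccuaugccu
EMP1 8mer: cagacatatccAAAGGGAAtactcacattt
EMP1 7mer-A1, upstream: tggggggagagAAGGGAAtaggataggct
EMP1 7mer-A1, downstream: gtgtggagcccAAGGGAAggcggggtttt
EMP1 7mer-m8: ctttgtttctgAAAGGGAgacatgtgaag
PMP22 7mer-A1: gggaagggaggAAGGGAAaacagaaagca

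The motifs searched were AAAGGGAA (8mer), AAAGGGA (7mer-m8) and AAGGGAA (7mer-A1), of which the 8mer contains both others, on the transcript strand only and, for each gene, in its longest 3'UTR that follows a complete coding sequence. The 3'UTR of EMP1, 5248 bases long, held the 8mer in exon 5, on the plus strand, at chr12:13216531-13216538 of GRCh38. Its further matches lay downstream in the same exon, at chr12:13218457-13218463, chr12:13218632-13218638 and chr12:13218675-13218681. Of 979 genes with a 3'UTR within 20% of that length, 66.2% held at least 1 of the motifs and 22.1% held an 8mer. The 3'UTR of PMP22, 1319 bases long, held its match in exon 5 on the minus strand, at chr17:15230860-15230866, and 22.2% of 1994 genes with a 3'UTR of similar length held a match. The 3'UTR of EMP2 held none in 4483 bases, where 58.2% of 1267 genes of similar length had a match, and that of EMP3 held none in 83 bases, where 0.971% of 206 genes did. Over all 14615 genes with such a 3'UTR, 26.9% had a match. Among all annotated protein-coding transcripts, 2 of 7 held a match in EMP1 and 6 of 9 in PMP22. These are matches of letters and were not tested as binding sites. EMP1, the member with the most matches, was chosen for its higher mRNA with miR-204-5p mimics, so its direction was fixed by that choice. For PMP22, which also had a match, the values of both groups overlapped. In EMP2 and EMP3, without a match, the mRNA fell and rose respectively. A relation between matches and direction was not tested.

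The levels are FPKM, fragments per kilobase of transcript scaled to the mapped fragments of the library, so that levels of different genes can be compared. The inferred depth was 13.1 M to 16.4 M fragments per library, with overlap between the groups, and the median gene stood at 5.61 to 5.89 FPKM. Means are given ± SD over the 3 libraries of a group. The log2 difference, or log2 fold change, is that of log2(FPKM + 1), miR-204-5p mimics minus control mimics, a scale on which low genes appear less changed than they are. Each except that of EMP1 was tested with limma, and p-values were adjusted over the whole table by the Benjamini-Hochberg method. By an adjusted p under 0.05, 40.8% of all genes differed between the groups, 23.9% higher and 16.8% lower with miR-204-5p mimics, and for 53.6% of all genes the values of both groups did not overlap. The excess of higher calls, 3578 against 2520 lower, depended on the scaling, with 3043 against 3026 after quantile normalization, 3106 against 2948 with equal medians and 3080 against 2885 with equal sums. With only the 11504 genes of a mean of at least 1 FPKM fitted, 5761 were called, 3328 higher and 2433 lower. These values are the background for every count given here. In such bulk samples, a change in the number of cells that make an mRNA and a change in the amount per cell cannot be told apart.

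EMP2 was the most abundant member in every library, EMP1 was next with miR-204-5p mimics, and EMP3 was the lowest throughout. In the mimics group the order EMP2, EMP1, PMP22, EMP3 held without overlap between neighbours. With control mimics the ranges of EMP1 (2.00 to 11.8 FPKM) and PMP22 (3.98 to 5.04 FPKM) overlapped, and neither of these neighbours could be placed above the other. EMP2 exceeded 89.8% of all genes with control mimics and 87.1% with miR-204-5p mimics. EMP1 exceeded 48.9% of genes by its mean with control mimics and 78.2% with miR-204-5p mimics.

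**Figure D1:**
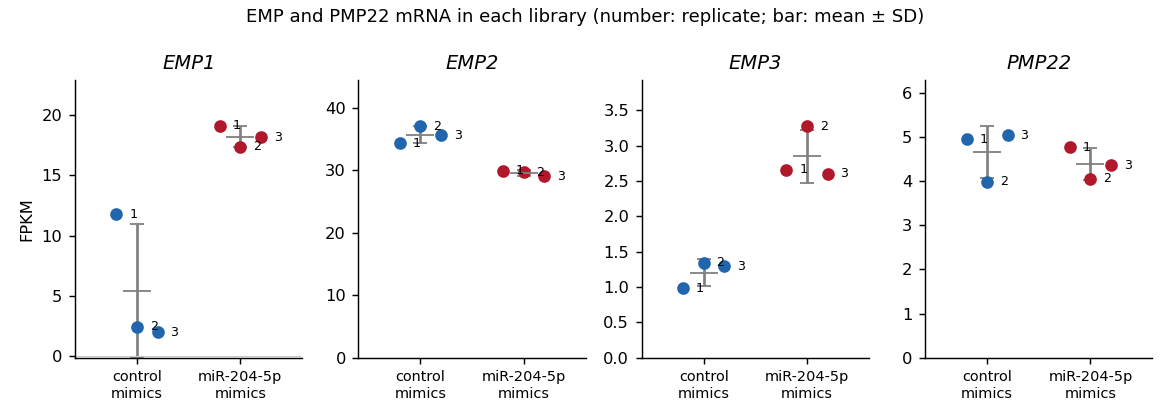
FPKM of EMP1, EMP2, EMP3 and PMP22 (one panel each, y axis in FPKM) in 3 libraries with control mimics and 3 with miR-204-5p mimics; points are libraries, numbered by replicate, and bars give mean ± SD. For EMP1, control replicate 1 stands at 11.8 FPKM, between the other controls (2.47 and 2.00) and the miR-204-5p mimics (17.4 to 19.1), while the groups are apart for EMP2 and EMP3 and overlap for PMP22.

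EMP1 (ENSG00000134531) lies on the plus strand of chromosome 12, listed from 13196716 to 13219939 with a transcript of 5 exons and 5921 bases. With miR-204-5p mimics its mRNA stood at 19.1, 17.4 and 18.2 FPKM in replicates 1, 2 and 3. With control mimics it stood at 11.8, 2.47 and 2.00 FPKM. The groups did not overlap, and control replicate 1 was far nearer to the mimics than the other controls were. The means were 18.2 ± 0.863 and 5.42 ± 5.52 FPKM, a 3.36-fold ratio, and the log2 difference was 1.91 (standard error 0.52), the fifth highest of the table.

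The highest control value of EMP1 was 5.89-fold above the lowest. Among the 11504 genes with a mean of at least 1 FPKM, the control range of EMP1, 2.09 on the log2(FPKM + 1) scale, ranked 28 from the top, where the median gene had a range of 0.14. Its range with miR-204-5p mimics, 0.13, was near the median of 0.15 in that group. On the inferred depth, about 982, 204 and 194 fragments lay behind the control values. This takes the whole level as lying on the listed transcript, 1 of 12 annotated for the gene. Set against control replicates 2 and 3, with a mean of 2.24 FPKM, control replicate 1 was 5.27-fold and the mean of the miR-204-5p mimics 8.15-fold higher. Against control replicate 1 alone, the mean of the miR-204-5p mimics was 1.55-fold higher. Without control replicate 1 the log2 difference of EMP1 was 2.57 (standard error 0.09). Without control replicate 2 it was 1.63 (standard error 0.58), and without control replicate 3 it was 1.53 (standard error 0.52).

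Control replicate 1 did not stand apart over the table by this measure. Of the 11504 genes, 31 were at least 2-fold above both other controls in replicate 1, as were 31 in replicate 2 and 20 in replicate 3. In the same replicate 46 genes were at least 2-fold below both others, against 50 and 44. The cause of the high EMP1 value in this library was not tested.

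By a rule of likeness, the root mean square distance between log2(FPKM + 1) profiles centred over the 6 libraries, the genes nearest to EMP1 were DRAM1, MT1X, AGPAT5, LRRC8E and DEFB4A, at distances from 0.45 to 0.62. DRAM1, a lysosomal membrane protein of the p53 response, stood at 13.6, 5.72 and 6.24 FPKM in control replicates 1, 2 and 3 and at 19.6, 21.9 and 21.4 FPKM with miR-204-5p mimics. MT1X, a metallothionein that binds zinc and copper, stood at 28.3, 11.3 and 13.0 FPKM in the controls and at 37.9, 33.3 and 32.4 FPKM with miR-204-5p mimics. Both had their highest control value in replicate 1, as EMP1 did. AGPAT5, an acyltransferase of phospholipid synthesis, stood at 10.7, 4.96 and 5.63 FPKM in the controls and at 15.3, 15.6 and 15.7 FPKM with miR-204-5p mimics. LRRC8E, a subunit of volume-regulated anion channels, stood at 4.15, 1.69 and 1.02 FPKM in the controls and at 6.21, 3.30 and 5.90 FPKM with miR-204-5p mimics, so that its groups overlapped. DEFB4A, a defensin with a near-identical copy whose reads may have been split, stood at 1.07, 0.568 and 0.322 FPKM in the controls and at 3.77, 3.09 and 1.91 FPKM with miR-204-5p mimics. These genes were chosen for their likeness in the same 6 libraries, so the likeness is a description.

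**Figure D2:**
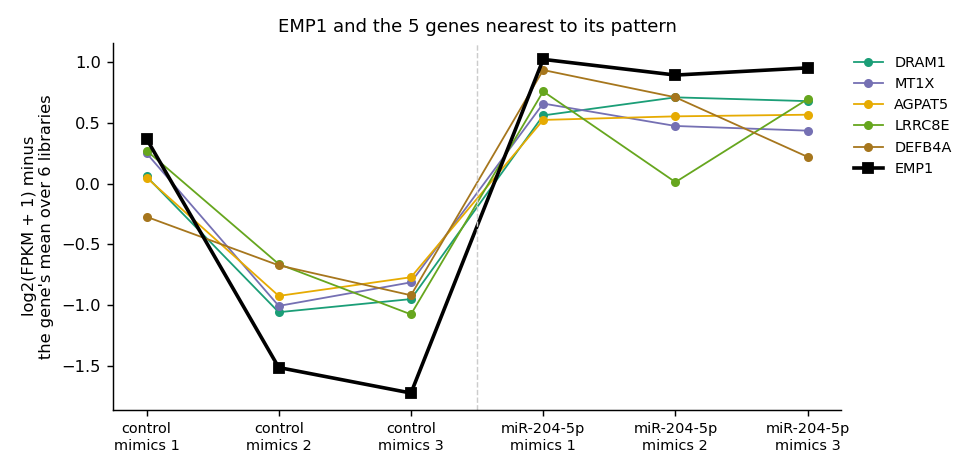
Profiles of EMP1 (black squares) and of DRAM1, MT1X, AGPAT5, LRRC8E and DEFB4A over the 6 libraries, as log2(FPKM + 1) minus the gene's own mean; lines join the values of 1 gene and carry no order of libraries. All 6 genes have their highest control value in replicate 1, and EMP1 has the lowest values in control replicates 2 and 3.

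EMP3 (ENSG00000142227), on the plus strand of chromosome 19, stood at 2.66, 3.28 and 2.60 FPKM in replicates 1, 2 and 3 with miR-204-5p mimics and at 0.981, 1.34 and 1.29 FPKM with control mimics. The groups did not overlap. EMP3 rose 2.36-fold, from 1.21 ± 0.196 to 2.85 ± 0.374 FPKM, a log2 difference of 0.80 (standard error 0.10, adjusted p = 0.00128 by limma). The call held under each of 13 alternative settings, with limma adjusted p-values from 0.000971 to 0.00527, and on a pseudocount of 0.1 the log2 difference was 1.18.

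The level of EMP3 rests on few inferred fragments and on an unusual transcript. On the inferred depth, 10.4 to 15.9 fragments lay behind the control values and 26.2 to 39.4 behind the others. These numbers take the whole level as lying on the listed transcript, 1 of 9 annotated for the gene. The transcript listed for it, from 48321509 to 48329439 with 4 exons and 753 bases, has a first exon of 469 bases, and its coding sequence is annotated as incomplete at the end, with 269 coding bases and no 3'UTR. How far the listed transcript describes the EMP3 mRNA of these cells was not tested. In GENCODE 29 the gene as a whole also overlaps CCDC114, a gene of the opposite strand, although the listed transcripts of both lie 1.43 kb apart, and the counting is not stated to use strand. CCDC114 stood at 0.206 to 0.321 FPKM with miR-204-5p mimics and 0.118 to 0.201 FPKM with control mimics, a log2 difference of 0.14 (adjusted p = 0.0726 by limma).

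The genes with the profile most like EMP3 were ITGB3BP, CBR4 and ACAD11, at distances from 0.0496 to 0.0568. ITGB3BP, a centromere protein and nuclear receptor cofactor, stood at 24.5 ± 1.53 FPKM with miR-204-5p mimics and 13.9 ± 1.35 FPKM with control mimics.

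EMP2 (ENSG00000213853), a minus-strand gene of chromosome 16 (10528422 to 10580698), stood at 29.9, 29.7 and 29.04 FPKM in replicates 1, 2 and 3 with miR-204-5p mimics and at 34.3, 37.0 and 35.5 FPKM with control mimics. All 3 values with miR-204-5p mimics lay under the lowest control. EMP2 fell from 35.6 ± 1.37 to 29.6 ± 0.464 FPKM, so that the control mean was 1.21-fold higher, and the log2 difference was −0.26 (standard error 0.041, adjusted p = 0.00308 by limma). The decrease was small but larger than the spread between replicates, with a 95% interval of the log2 difference from −0.36 to −0.16. Under 13 alternatives the log2 difference of EMP2 stayed between −0.31 and −0.23, with limma adjusted p-values up to 0.0190. An antisense gene, AC027277.1, overlaps EMP2 in GENCODE 29, and it was not analysed here.

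PMP22 (ENSG00000109099), on the minus strand of chromosome 17 and listed from 15229777 to 15262589, stood at 4.76, 4.05 and 4.35 FPKM in replicates 1, 2 and 3 with miR-204-5p mimics. With control mimics it stood at 4.95, 3.98 and 5.04 FPKM. The groups overlapped. The means were 4.39 ± 0.356 and 4.65 ± 0.587 FPKM, with a log2 difference of −0.07 (standard error 0.096, adjusted p = 0.623 by limma). The 95% interval of the log2 difference ran from −0.30 to 0.16. The limma adjusted p-value of PMP22 stayed above the threshold under all 13 alternatives, up to 0.922. The antisense gene AC005703.3, which overlaps PMP22 in GENCODE 29, was not analysed here.

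Over the 4 members, FPKM summed to 56.5, 54.4 and 54.2 in replicates 1, 2 and 3 with miR-204-5p mimics and to 52.0, 44.8 and 43.9 with control mimics. EMP1 made up 32.0% to 33.8% of that sum with miR-204-5p mimics, 22.7% in control replicate 1, and 5.51% and 4.56% in control replicates 2 and 3. EMP2 made up 53.0% to 54.6% with miR-204-5p mimics and 65.95%, 82.6% and 81.0% with control mimics. The share of PMP22 lay between 7.44% and 11.5% in all libraries, and that of EMP3 between 1.88% and 6.02%. Since EMP1 was chosen for its values, the sum and the shares carry that choice and were not tested.

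**Figure D3:**
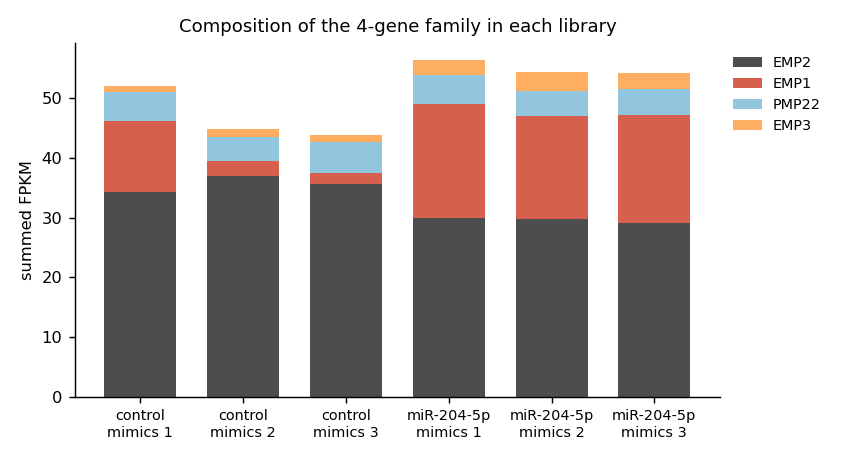
Summed FPKM of EMP2, EMP1, PMP22 and EMP3 (stacked, y axis from 0) in each of the 6 libraries. EMP2 takes 53.0% to 54.6% of the bar with miR-204-5p mimics and 65.95% to 82.6% with control mimics, and EMP1 takes 22.7% in control replicate 1 against 5.51% and 4.56% in the other controls.

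The genes of the table within 200 kb of each member were examined beside them, where 40.8% of all genes differed by limma's adjusted p. Near EMP1 lay GSG1 (101 kb away), FAM234B and HEBP1. GSG1, itself a distant relative of the family, was listed at 0 to 0.138 FPKM, and HEBP1, a heme-binding protein, rose from 13.1 ± 0.339 to 18.0 ± 1.11 FPKM (log2 difference 0.43, adjusted p = 0.00144 by limma). FAM234B also rose (log2 difference 0.22, adjusted p = 0.0292 by limma). None of the 3 neighbours of EMP2 had a limma adjusted p under 0.05. Of the 12 near EMP3, 1 was higher (LIG1, DNA ligase I, log2 difference 0.22, adjusted p = 0.0277 by limma) and 4 were lower (GRIN2D, CARD8, ZSWIM9 and KCNJ14, log2 differences from −0.53 to −0.20). Of the 3 near PMP22, TEKT3 was lower (log2 difference −0.29, adjusted p = 0.0153 by limma) at 0.108 to 0.516 FPKM.

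The wider superfamily moved in both directions. Of 24 claudins, the strand-forming proteins of tight junctions, 17 were analysed, 9 of them with a mean below 1 FPKM. By limma's adjusted p, 7 of the 17 (41.2%) differed, 2 higher and 5 lower with miR-204-5p mimics, close to the 40.8% of all genes. CLDN1, a main barrier claudin of skin, was the most abundant and fell from 183 ± 2.07 to 133 ± 5.55 FPKM (log2 difference −0.46, adjusted p = 0.000343 by limma). CLDN7 rose from 81.0 ± 6.86 to 115 ± 3.44 FPKM (log2 difference 0.50, adjusted p = 0.00152 by limma). CLDN16, known for magnesium reabsorption in the kidney, rose from 1.92 ± 0.223 to 3.46 ± 0.192 FPKM (log2 difference 0.61, adjusted p = 0.00135 by limma). CLDN15 (log2 difference −0.32) and CLDN9 (−0.31) were lower, and the call of CLDN9 was lost in 4 of 13 alternatives, each of which left out 1 library. CLDN4, a claudin of simple epithelia, stood at 24.2, 21.3 and 0.228 FPKM with miR-204-5p mimics and at 18.5, 20.4 and 19.2 FPKM with control mimics, and its log2 difference of −1.20 (adjusted p = 0.433 by limma) turned to 0.22 without replicate 3 of the miR-204-5p mimics. The median log2 difference of the 17 claudins was −0.10, against 0.03 over all genes.

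Of 29 other 4-span relatives, 12 were in the table, 7 of them with a mean below 1 FPKM. The median log2 difference of the 12 was 0.11. By limma's adjusted p, 6 of the 12 (50.0%) differed, 4 higher and 2 lower, against 40.8% of all genes. When only genes with a mean of at least 1 FPKM were fitted, 4 of 5 relatives differed, as did 5761 of all 11504 such genes. LHFPL6 had the largest difference among those expressed at 1 FPKM or more, rising from 12.4 ± 0.0361 to 26.4 ± 0.567 FPKM (log2 difference 1.03, adjusted p = 2.95e-05 by limma). CACNG4, an auxiliary subunit of AMPA receptors, rose from 0.627 ± 0.103 to 1.90 ± 0.0885 FPKM (log2 difference 0.84, adjusted p = 0.000236 by limma), and TMEM182 rose as well (log2 difference 0.47). CACNG1, a subunit of the muscle calcium channel, was listed at 0 in all controls and at 0.242 to 0.298 FPKM with miR-204-5p mimics. PERP, a p53-induced component of desmosomes and the most abundant of these relatives, fell from 141 ± 1.46 to 110 ± 7.19 FPKM (log2 difference −0.36, adjusted p = 0.00229 by limma). TMEM178B was lower at no more than 0.123 FPKM, and its call was kept in 4 of 12 alternatives.

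Proteins reported to bind or act with the family were counted as partners. All 12 that were analysed were expressed above 1 FPKM. Of these, 9 (75.0%) differed by limma's adjusted p, 3 higher and 6 lower with miR-204-5p mimics, against 40.8% of all genes. When only genes with a mean of at least 1 FPKM were fitted, 10 of the 12 differed, as did 5761 of all 11504 such genes. The median log2 difference of the partners was 0.01, and their share was not tested against that of other genes. P2RX7, an ATP-gated channel that binds EMP proteins, was not analysed here. Leaving out replicate 1 or replicate 2 of the miR-204-5p mimics lowered the count of 9 to 5.

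Among the integrins, which EMP2 and PMP22 accompany at the membrane, ITGA6 and ITGB4, the subunits of the laminin receptor of hemidesmosomes, rose, and ITGB1 fell. ITGA6 rose from 47.6 ± 0.975 to 63.7 ± 3.43 FPKM (log2 difference 0.41, adjusted p = 0.000934 by limma) and ITGB4 from 48.3 ± 1.85 to 59.8 ± 4.43 FPKM (log2 difference 0.30, adjusted p = 0.00868 by limma). ITGB1 fell from 51.2 ± 0.783 to 41.3 ± 2.29 FPKM (log2 difference −0.30, adjusted p = 0.00305 by limma). TGFBR2, a receptor for TGF-beta, had the largest decrease of the partners, at a log2 difference of −1.41, and CD44, a hyaluronan receptor, fell from 48.8 ± 6.13 to 36.0 ± 2.39 FPKM (log2 difference −0.43, adjusted p = 0.0118 by limma). The kinases SRC and PTK2 (focal adhesion kinase) and the receptor ERBB2 were lower by log2 differences from −0.21 to −0.13, and each of these calls was lost in 5 or 6 of 13 alternatives.

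CANX, a chaperone that retains misfolded PMP22 in the endoplasmic reticulum, was higher (log2 difference 1.23, adjusted p = 0.0237 by limma) but uneven, at 205, 205 and 113 FPKM with miR-204-5p mimics and 88.0, 88.1 and 46.9 FPKM with control mimics. Its call was lost without replicate 1 or replicate 2 of the miR-204-5p mimics (limma adjusted p up to 0.0796). CAV1, the main protein of caveolae, stood at 127, 115 and 111 FPKM with miR-204-5p mimics and at 55.1, 93.4 and 90.6 FPKM with control mimics (log2 difference 0.59, adjusted p = 0.0533 by limma). Control replicate 1 was again apart from the other controls for CAV1, but on the side away from the miR-204-5p mimics, where for EMP1 it was on the side towards them. The call of CAV1 was gained in 3 of 13 alternatives, among them the fit without control replicate 1.

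**Figure D4:**
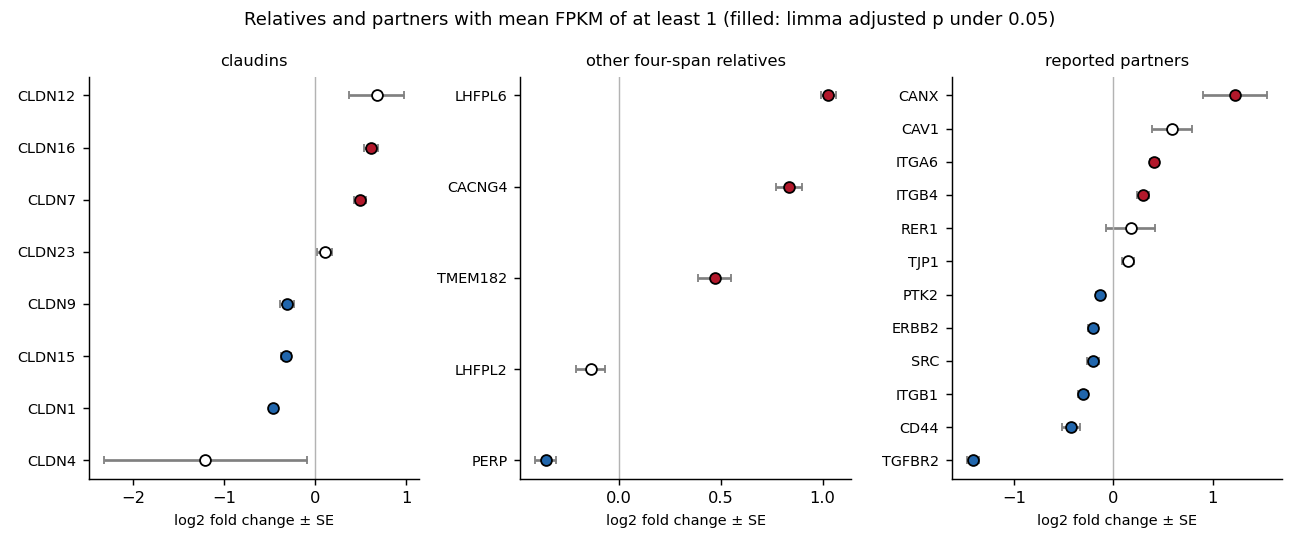
log2 difference (x axis, miR-204-5p mimics minus control mimics, on log2(FPKM + 1)) with its standard error for claudins, other 4-span relatives and reported partners with a mean of at least 1 FPKM; filled points have a limma adjusted p under 0.05 (red higher, blue lower). LHFPL6 (1.03) and CANX (1.23) are the highest called genes and TGFBR2 (−1.41) the lowest.

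PMP22 is also named GAS3, for growth arrest-specific, and other genes named GAS, among them GAS2-like genes, were set beside it. Of the 6 analysed, 2 had a mean below 1 FPKM. Among the 6, 0 had a limma adjusted p under 0.05, where 40.8% of all genes did. Only 1 had an unadjusted p under 0.05, and no other tool was run. That gene was GAS2L1, at 3.47 to 4.17 FPKM with miR-204-5p mimics and 4.14 to 5.42 FPKM with control mimics (log2 difference −0.28, adjusted p = 0.0829 by limma). The median log2 difference of the 6 was −0.05.

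The labelled cell type was checked on 12 squamous markers, all of which were in the table with a mean above 1 FPKM. KRT5 (118 to 184 FPKM), KRT14 (80.6 to 119.8 FPKM) and TP63 (23.9 to 57.6 FPKM) were present in every library. Others were low, with DSG3 at 3.80 to 9.33 FPKM over all libraries. KRT6A stood at 2.34 to 3.36 FPKM with miR-204-5p mimics and 0.970 to 1.67 FPKM with control mimics. By limma's adjusted p, 11 of the 12 (91.7%) differed, against 40.8% of all genes. Among the 11504 genes with a mean of at least 1 FPKM, 5761 differed when only those were fitted. Of the markers, 3 were higher (KRT6A, CDH1 and SFN, log2 differences of 0.81, 0.39 and 0.26). The other 8 called were lower, led by TP63 and DSG3 (both −1.01) and KRT14 (−0.51). The lower call of EPCAM was kept in 5 of 13 alternatives. The sum of the list was 1062 to 1156 FPKM with miR-204-5p mimics and 1226 to 1248 FPKM with control mimics. Its most abundant genes were SFN, which was higher, and KRT17, the marker not called. KRT17 stood at 283, 253 and 191 FPKM with miR-204-5p mimics and at 262, 281 and 273 FPKM with control mimics. Of 12 markers of Schwann cells and myelin, the setting in which PMP22 is best known, 6 were analysed, and the sum of these was 40.2 to 43.7 FPKM with miR-204-5p mimics and 34.4 to 37.4 FPKM with control mimics. Most of it came from NGFR, which basal squamous cells also make, at 30.3 to 33.4 and 20.8 to 21.2 FPKM. Of the defining markers, SOX10, the transcription factor of Schwann cells, reached no more than 0.197 FPKM in any library. By limma's adjusted p, NGFR and MBP were higher and CNP was lower among these 6. The part of these markers in the results for the family was not tested.

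**Figure D5:**
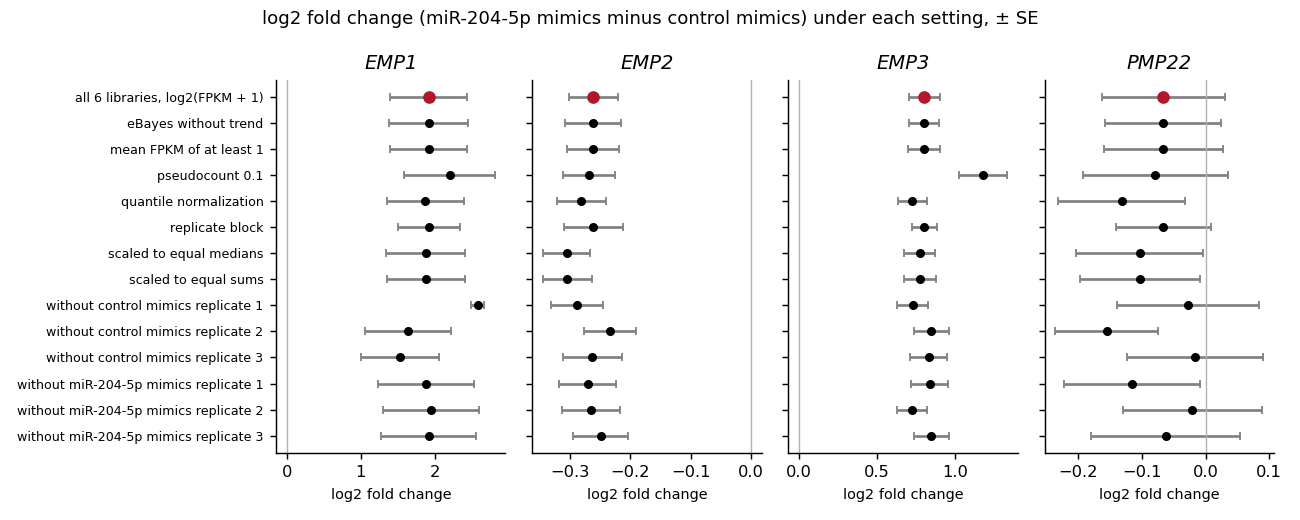
log2 difference ± standard error (x axis) of EMP1, EMP2, EMP3 and PMP22 with all 6 libraries (red) and under 13 alternative settings (black, y axis). EMP1 runs from 1.53 to 2.57, with the highest value and the smallest error without control mimics replicate 1, EMP2 stays below 0, EMP3 stays above 0, and the values of PMP22 lie from −0.16 to −0.02.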

How the data were processed

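Sequencing used TruSeq libraries and the HiSeq X. The FPKM values were computed by the authors and deposited for each library, with HISAT2, StringTie and hg38 named in the submitters' processing notes. The annotation is not given in the sources used here. The authors' log2 ratios, p-values and FDR in the same table were not used. No counts are in the table, so the study's edgeR test on counts was replaced by limma 3.58.1 in R 4.3.3 (trended eBayes) on log2(FPKM + 1) without filter, checked on simulated data. Depth was inferred from the smallest steps of FPKM times length in 1174 genes with 1 annotated transcript; 24.9% to 31.7% of low values were whole multiples (within 0.05 of a step). The step first found was doubled to give 1 fragment, since its even multiples outnumbered odd ones, and without this doubling the inferred fragments would be more numerous. Fragments of a member were inferred from its FPKM and the length of its listed transcript, although each member has further annotated transcripts. Transcripts, positions and 3'UTRs came from GENCODE 29. Members and lists were chosen with earlier results of these data known. Genes outside the family were named by list (3 highest and 3 lowest calls at 1 FPKM or more, defining markers and genes with a role beside a member), by likeness of profile or by a distance under 200 kb. CLDN4, CACNG1, TMEM178B, CAV1, GAS2L1, SRC, PTK2, ERBB2, EPCAM, KRT17, MBP, AC027277.1 and AC005703.3 were named after their values were seen. Alternatives were a pseudocount of 0.1, a mean FPKM of at least 1, 3 scalings, eBayes without trend, a replicate block and each library left out. Python 3.11.15 was used for the other steps. The level of 1 gene of the lists is not reported here.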

Additional observations from a re-analysis of the deposited data

How the results depend on the processing

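Across 13 alternatives, EMP2, EMP3 and PMP22 kept their direction and their side of the threshold. The number of genes called stayed between 4971 and 6089, against 6098 of 14959. Among these, the fit with a mean FPKM of at least 1 held only 11504 genes and called 5761. The log2 fold change of EMP1 ran from 1.53 to 2.57, and its sign is fixed by the choice of a gene whose groups do not overlap. The number of partners called was 5 to 9 with 1 library left out (5 without replicate 1 or without replicate 2 of the miR-204-5p mimics), and that of GAS genes 0 to 1, with 1 under quantile normalization and 1 without control mimics replicate 3, GAS2L1 each time. Deviations of same-numbered libraries from their group means had Pearson's r of −0.040, −0.021 and −0.11 over 11504 genes. For differently numbered libraries r ran from −0.069 to 0.11. Whether the experiments were paired cannot be told from these values. With the replicate number as a block, 5096 genes were called, and EMP2 (limma adjusted p = 0.0190), EMP3 (limma adjusted p = 0.00469) and PMP22 (limma adjusted p = 0.532) stayed on the same side of the threshold. A fit that leaves out 1 library compares 2 libraries with 3. The labels give no batch. By the fragments inferred on the listed transcripts, depth limits EMP3 most, at 10.4 to 39.4 per library.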
